A study of Mus musculus with 8 samples.

Results

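The 10 genes described here, called granule genes, encode proteins of neutrophil granules or, for S100a8 and S100a9, of the neutrophil cytoplasm. Granules are the stores of antimicrobial proteins that a neutrophil carries into tissue. The 10 genes were chosen by name: every probe set whose platform annotation gave 1 of the 10 symbols was taken. This found 10 probe sets, 1 per gene, among 18193 genes and 45037 probe sets. They were divided by the stage at which they are known to be expressed into 4 early genes (Elane, Mpo, Prtn3 and Ctsg) and 6 late genes (Ltf, Camp, Ngp, Lcn2, S100a8 and S100a9). Expression was measured on 8 1-colour Affymetrix arrays of total RNA from Sca1+Lin- cells sorted from mouse bone marrow, 5 from Sca1-MALT1 transgenic mice and 3 from wild-type (WT) mice. Sca1+Lin- cells carry the surface marker Sca1 and lack the markers of mature lineages, a fraction enriched for blood stem and progenitor cells. The Sca1-MALT1 transgene is named for the Sca1 promoter, which is active in that fraction, and for MALT1, which relays antigen receptor signals to NF-kB and cleaves proteins as a paracaspase. RNA of both groups was amplified linearly before labelling. The labels give no strain, age, sex or batch and do not say whether each sample came from its own animal, so the spread between arrays may be partly technical. The values are RMA signals on a log2 scale, and 1 unit is a doubling of signal.

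Neutrophils build their granules in an order that follows their maturation. Promyelocytes make the primary (azurophil) granules with their peroxidase and serine proteases, and myelocytes and metamyelocytes then make the secondary (specific) granules with lactoferrin and the cathelicidins. S100a8 and S100a9 encode the subunits of calprotectin, which fills the cytoplasm of the same later cells rather than a granule. Transcription of the early genes is known to depend on PU.1, RUNX1, MYB and C/EBP alpha, and that of the late genes on C/EBP epsilon. Stem cells, for which the sorted fraction is enriched, are not known for expressing the late genes at high levels. The fraction also held signal of B, T and plasma cell markers, given below.

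The promoters of the genes are shown here because the signals of the early genes, and those of the late genes, were closely correlated across the 8 arrays, while the early and late genes parted mainly in WT replicate 3. All 10 genes had a promoter in the RefSeq table of build GRCm38.p6, and the 250 bases before each gene's start were searched on both strands for 4 motifs: TTNNGNAA for C/EBP, GAGGAA for PU.1, TGTGGT for RUNX and AACNG for MYB. The PU.1 motif was found in all 4 early promoters and in 3 of 6 late promoters (Ltf, Lcn2 and S100a8), against 23.3% of 32851 promoters in the table. The C/EBP motif was found in 0 of 4 early promoters and in 5 of 6 late promoters, against 36.8% of all. The RUNX motif was found in 1 early promoter (Ctsg) and 1 late promoter (S100a9), against 14.0% of all, and the short MYB motif in all 10, against 74.2% of all. These are matches of letters and do not show that a factor binds there. Below, the pair of early genes and the pair of late genes whose signals were most alike across arrays are given, followed by Ltf, which held matches to both motifs. The windows are chr10:79886062-79886311 on the plus strand for Elane, chr14:56102575-56102824 on the minus strand for Ctsg, chr9:109849457-109849706 on the minus strand for Camp, chr9:110419558-110419807 on the plus strand for Ngp and chr9:111019042-111019291 on the plus strand for Ltf. Each is read 5′ to 3′ along the gene's own strand, and capitals mark the C/EBP and PU.1 matches in either orientation.
Elane: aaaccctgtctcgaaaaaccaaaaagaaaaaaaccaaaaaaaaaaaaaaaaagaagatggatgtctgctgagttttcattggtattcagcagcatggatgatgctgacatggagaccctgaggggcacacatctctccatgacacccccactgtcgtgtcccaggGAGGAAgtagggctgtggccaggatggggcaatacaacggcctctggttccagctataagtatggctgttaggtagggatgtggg
Ctsg: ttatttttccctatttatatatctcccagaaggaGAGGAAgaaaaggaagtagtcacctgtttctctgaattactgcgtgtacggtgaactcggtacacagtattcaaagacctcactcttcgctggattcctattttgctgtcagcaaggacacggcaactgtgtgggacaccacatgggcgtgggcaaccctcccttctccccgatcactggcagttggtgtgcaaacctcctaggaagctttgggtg
Camp: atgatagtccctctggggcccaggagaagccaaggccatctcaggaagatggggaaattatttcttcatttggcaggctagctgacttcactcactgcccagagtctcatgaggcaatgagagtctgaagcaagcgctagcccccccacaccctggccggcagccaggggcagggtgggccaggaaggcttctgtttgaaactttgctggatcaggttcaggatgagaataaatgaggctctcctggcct
Ngp: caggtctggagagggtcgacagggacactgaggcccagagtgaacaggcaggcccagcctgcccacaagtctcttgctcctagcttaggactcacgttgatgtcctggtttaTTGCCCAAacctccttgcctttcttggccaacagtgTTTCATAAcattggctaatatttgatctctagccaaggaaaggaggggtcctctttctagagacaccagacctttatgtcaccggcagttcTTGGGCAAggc
Ltf: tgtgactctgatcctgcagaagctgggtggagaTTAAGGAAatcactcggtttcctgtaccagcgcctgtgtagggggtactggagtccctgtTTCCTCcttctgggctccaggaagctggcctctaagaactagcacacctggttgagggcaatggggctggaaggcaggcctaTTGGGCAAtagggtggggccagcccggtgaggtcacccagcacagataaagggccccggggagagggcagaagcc
Elane and Ctsg each held 1 PU.1 match, starting at position -85 in Elane and -216 in Ctsg, counted from the gene's start. Ngp held 3 C/EBP matches, Camp held no match to either motif in this window, and Ltf held 2 C/EBP matches and 1 PU.1 match. In the RefSeq gene order Prtn3 and Elane are neighbours on chromosome 10, and S100a8 and S100a9 are neighbours on chromosome 3. Camp, Ngp and Ltf all lie on chromosome 9 with other genes between them. In Ltf a MYB match shares its last base with the first of the PU.1 match, and no other MYB or RUNX match overlapped a C/EBP or PU.1 match in the 5 promoters printed.

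None of the 10 granule genes passed the test between Sca1-MALT1 and WT cells, and for most of them the spread among arrays of a group was larger than the difference between the groups. By limma's test 0 of 10 genes had an adjusted p under 0.05, where 0.0879% of all 18193 genes did (16 genes), and 0 of 10 had an unadjusted p under 0.05, where 10.2% of all genes did. The exact permutation test over arrays gave p of 0.125 to 0.893 for the 10 genes, with 0.0179 the smallest it can give. All 6 late genes were lower in Sca1-MALT1 on average, by 0.61 to 1.30 log2 units with a median difference of -0.88, while Mpo was lower and the other 3 early genes higher (median difference of the 4 early genes 0.79). Over all genes the median difference was 0.00, and 49.3% of genes were lower. In 0 of 10 genes did the groups fail to overlap, against 7.13% of all genes. The median SD of the 10 genes was 1.30 among Sca1-MALT1 arrays and 0.91 among WT arrays, against 0.24 and 0.20 over all genes. In RNA from sorted cells in bulk, fewer cells of a type and less RNA per cell cannot be told apart.

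Before the genes are taken in turn, 2 arrays have to be set apart. Sca1-MALT1 replicate 4 and WT replicate 3 were the highest arrays for Itgam (CD11b), the integrin commonly stained to deplete myeloid cells in a lineage sort. Itgam is also 1 of the late neutrophil genes listed below. Its signal was 5.55, 4.94, 4.28, 8.71 and 4.86 in Sca1-MALT1 replicates 1 to 5, against 5.15, 5.40 and 8.60 in WT replicates 1 to 3. The 6 other arrays thus lay below the array medians of 6.40 to 6.48, and 1 array of each group lay above them. Of 6 listed sort markers 3 were measured. Cd3e, a T cell marker among them, read 9.74, 9.90, 10.18, 8.77 and 10.70 in the Sca1-MALT1 arrays, against 9.16, 9.20 and 8.89 in WT. Its lowest arrays were thus Sca1-MALT1 replicate 4 and WT replicate 3. Ptprc (CD45) read 13.34 to 14.21 over all arrays. The purity of the sorts was not tested. The results below are given for 8 arrays, and those of the 10 granule genes also without Sca1-MALT1 replicate 4 and WT replicate 3.

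The early genes were highest in the same 3 arrays. Elane encodes neutrophil elastase, a serine protease of azurophil granules. Its signal was 9.77, 6.93, 6.57, 12.48 and 7.54 in the 5 Sca1-MALT1 arrays, against 6.02, 9.73 and 6.44 in the 3 WT arrays. Replicates 4 and 1 of Sca1-MALT1 were above all WT arrays and the other Sca1-MALT1 arrays lay among them, so the groups overlapped. The means were 8.66 ± 2.47 (SD, n = 5) in Sca1-MALT1 and 7.40 ± 2.03 (n = 3) in WT cells, a difference of 1.26 (SE 1.45, limma adjusted p = 0.815, exact permutation p = 0.429).

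Ctsg encodes cathepsin G, a further serine protease of the same granules. Its signal was 11.57, 8.97, 7.07, 13.80 and 8.51 in the Sca1-MALT1 arrays, against 8.06, 11.57 and 7.97 in the WT arrays. Sca1-MALT1 held both the highest and the lowest array, 6.73 log2 units apart, which was the widest range of the 10 genes. The difference was 0.79 (SE 1.54, limma adjusted p = 0.902, exact permutation p = 0.625).

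Prtn3 encodes proteinase 3, the third of the azurophil serine proteases and the neighbour of Elane. It read 11.32, 11.06, 9.21, 13.22 and 10.89 in the Sca1-MALT1 arrays, against 10.67, 11.36 and 9.04 in the WT arrays. Only Sca1-MALT1 replicate 4 lay outside the range of WT. The difference was 0.79 (SE 0.84, limma adjusted p = 0.800, exact permutation p = 0.393).

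Mpo encodes myeloperoxidase, which makes hypochlorous acid from hydrogen peroxide and chloride. It read 12.63, 10.25, 8.13, 14.53 and 10.13 in the Sca1-MALT1 arrays, against 12.28, 12.97 and 9.34 in the WT arrays. Here replicate 4 lay above and replicate 3 below all WT arrays, and the mean of Sca1-MALT1 was the lower one. The difference was -0.40 (SE 1.43, limma adjusted p = 0.951, exact permutation p = 0.893).

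Sca1-MALT1 replicate 4, Sca1-MALT1 replicate 1 and WT replicate 2 were the 3 highest arrays for all 4 early genes, an arrangement found in 1.95% of all genes and looked for after the values were seen. WT replicate 3 was among the 2 lowest arrays for each of them.

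The late genes had another order of arrays, led by WT replicate 3. Ltf encodes lactoferrin, the iron-binding protein of specific granules. Its signal was 12.68, 12.37, 11.24, 14.41 and 11.35 in the Sca1-MALT1 arrays, against 12.96, 13.19 and 14.65 in the WT arrays. Replicates 1, 2, 3 and 5 of Sca1-MALT1 lay below every WT array, and replicate 4 lay between WT replicates 2 and 3. The means were 12.41 ± 1.28 (SD, n = 5) in Sca1-MALT1 and 13.60 ± 0.91 (n = 3) in WT cells, a difference of -1.19 (SE 0.73, limma adjusted p = 0.633, exact permutation p = 0.179).

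Camp encodes the cathelicidin whose cleaved end is the antimicrobial peptide CRAMP. It read 13.74, 13.25, 12.26, 14.60 and 12.05 in the Sca1-MALT1 arrays, against 13.66, 13.80 and 14.93 in the WT arrays. Only Sca1-MALT1 replicates 2, 3 and 5 were below all WT arrays. The difference was -0.95 (SE 0.59, limma adjusted p = 0.642, exact permutation p = 0.179).

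Ngp encodes neutrophilic granule protein, a relative of the cathelicidins and cystatins. It read 14.46, 14.00, 13.07, 15.02 and 13.02 in the Sca1-MALT1 arrays, against 14.01, 14.37 and 15.17 in the WT arrays. The highest reading was 0.12 below the top value of that array (15.29), so differences among the brightest arrays may be compressed. The difference was -0.61 (SE 0.49, limma adjusted p = 0.739, exact permutation p = 0.304).

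Lcn2 encodes lipocalin 2, which withholds iron from bacteria by binding their siderophores. It read 12.67, 12.17, 10.95, 14.26 and 11.26 in the Sca1-MALT1 arrays, against 12.71, 12.41 and 14.10 in the WT arrays. It was the late gene in which Sca1-MALT1 replicate 4, and not WT replicate 3, was the highest array. The difference was -0.81 (SE 0.74, limma adjusted p = 0.767, exact permutation p = 0.411).

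The calprotectin genes had the lowest p-values of the 10. S100a9 read 13.24, 13.16, 11.75, 14.75 and 12.01 in the Sca1-MALT1 arrays, against 14.12, 13.93 and 14.82 in the WT arrays. Apart from replicate 4, every Sca1-MALT1 array was below all WT arrays. The means were 12.98 ± 1.19 (SD, n = 5) in Sca1-MALT1 and 14.29 ± 0.47 (n = 3) in WT cells, a difference of -1.30 (SE 0.63, limma adjusted p = 0.529, exact permutation p = 0.125).

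S100a8 read 14.32, 14.16, 13.32, 14.89 and 12.96 in the Sca1-MALT1 arrays, against 14.57, 14.59 and 15.07 in the WT arrays. Its arrays fell in the same arrangement as for its partner, with replicate 4 alone among the WT values. The difference was -0.81 (SE 0.42, limma adjusted p = 0.551, exact permutation p = 0.161). Its range of 2.12 over 8 arrays was the smallest of the 10 genes. The highest reading, 15.07, also lay near the top value of that array (15.29), so this range may be compressed, as for Ngp.

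**Figure D1:**
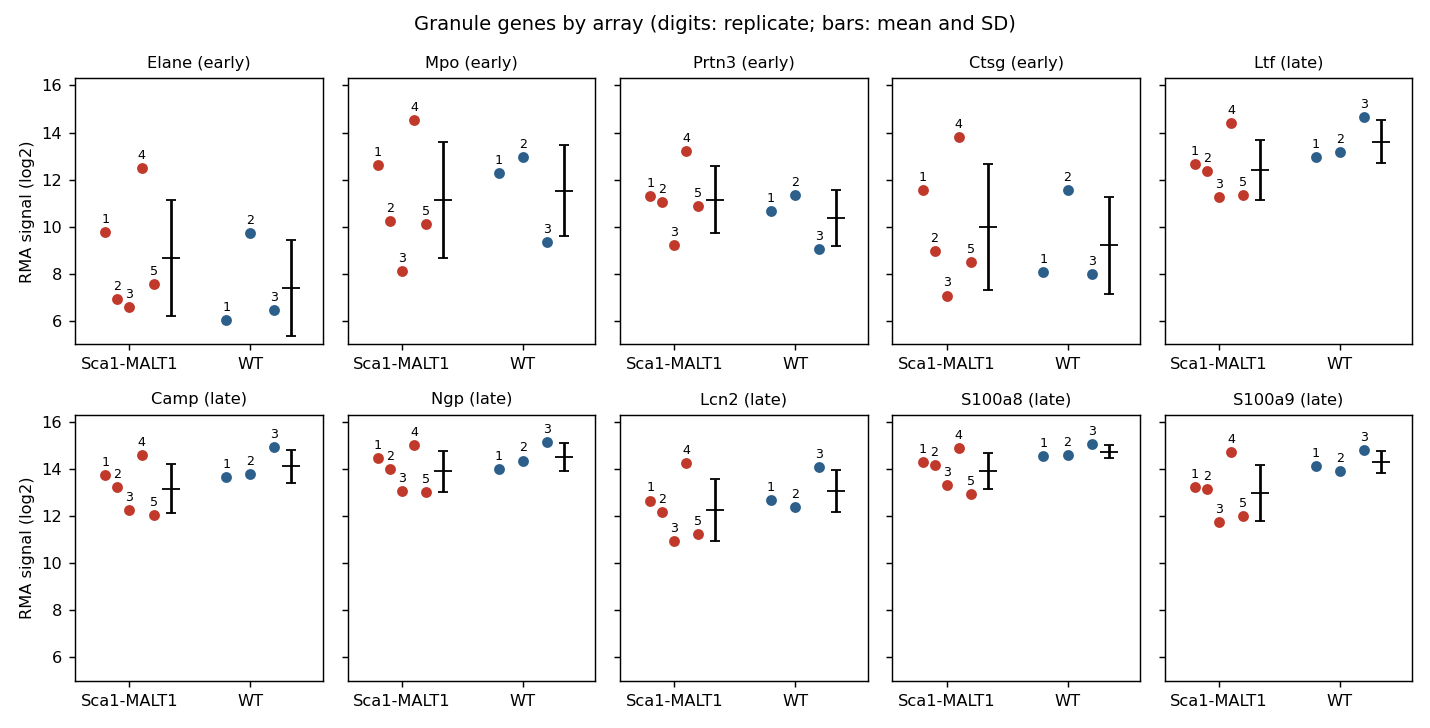
RMA signal (log2, vertical axis) of the 10 granule genes in the Sca1-MALT1 arrays (n = 5, red) and WT arrays (n = 3, blue). Each point is 1 array labelled with its replicate, and the bar beside each group is its mean and SD. Sca1-MALT1 replicate 4 is the highest array for the 4 early genes, WT replicate 3 is highest for 5 of the 6 late genes, and the groups overlap in every panel.

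Sca1-MALT1 replicate 4 and WT replicate 3 were the 2 highest arrays for all 6 late genes, an arrangement seen in 5.50% of all genes and also looked for after the values were seen. The early and late genes therefore parted in WT replicate 3. With each gene set to its own mean over the 8 arrays, the late genes of that array deviated by 1.32 and the early genes by -1.80. In Sca1-MALT1 replicate 4 both were high, at 1.19 for the late and 3.51 for the early genes. In Sca1-MALT1 replicate 3 both were low, at -1.37 and -2.26. Replicate 5 was as low as replicate 3 in the late genes (-1.36) but not in the early genes (-0.73).

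The deviation of the early genes minus that of the late genes was also taken for each array. It was 1.27, -0.41, -0.89, 2.32 and 0.63 in Sca1-MALT1 replicates 1 to 5, against -0.95, 1.16 and -3.12 in WT replicates 1 to 3. The group means differed by 1.55, by 1.12 without Sca1-MALT1 replicate 4, by 0.48 without WT replicate 3 and by 0.05 without both. The group difference thus rests mainly on WT replicate 3. The deviations were not scaled, and the early genes spread more. Their median SD was 2.48 among Sca1-MALT1 and 1.98 among WT arrays, against 1.12 and 0.64 for the late genes. Among the late genes, the spread of Ngp and S100a8 may be compressed, as given above. The score therefore weighs the early genes more and is no measure of maturation.

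**Figure D2:**
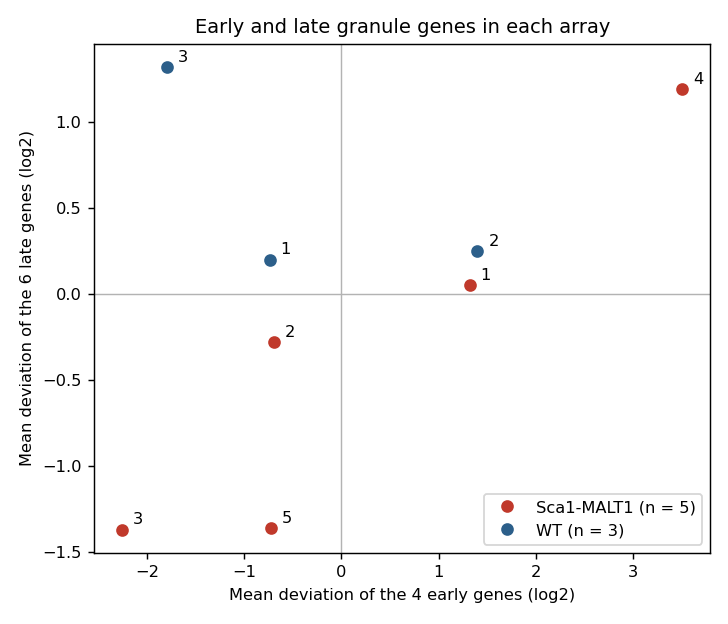
Mean deviation of the 4 early genes (horizontal axis, log2) against that of the 6 late genes (vertical axis, log2), each gene set to its mean over 8 arrays. Points are single arrays labelled with their replicate, Sca1-MALT1 in red and WT in blue. WT replicate 3 is at -1.80 and 1.32 and Sca1-MALT1 replicate 4 at 3.51 and 1.19, while the 3 WT arrays all lie above 0 for the late genes.

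Correlation between genes over the 8 arrays split the 10 genes in the way the stages do. Pearson's r was 0.91 to 0.99 for the 15 pairs of late genes and 0.80 to 0.97 for the 6 pairs of early genes. For the 24 pairs of an early and a late gene it was 0.24 to 0.58. The closest early pair was Elane and Ctsg at 0.97, and the closest late pair Camp and Ngp at 0.99. Without Sca1-MALT1 replicate 4 the late pairs stood at 0.91 to 0.99, the early pairs at 0.65 to 0.95 and the mixed pairs at -0.18 to 0.43. Without WT replicate 3 as well, the median r of mixed pairs was 0.65, against 0.80 for early and 0.95 for late pairs, so the low mixed values rest largely on WT replicate 3. In that setting the mixed pairs spanned 0.25 to 0.91 and overlapped the early pairs at 0.60 to 0.94. Mpo then had r of 0.80 to 0.91 with the late genes and 0.60 to 0.81 with the other early genes. Within groups, with each group's mean removed, the median r was 0.90 for early, 0.96 for late and 0.62 for mixed pairs. All genes were read from the same arrays, and these values describe them only.

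**Figure D3:**
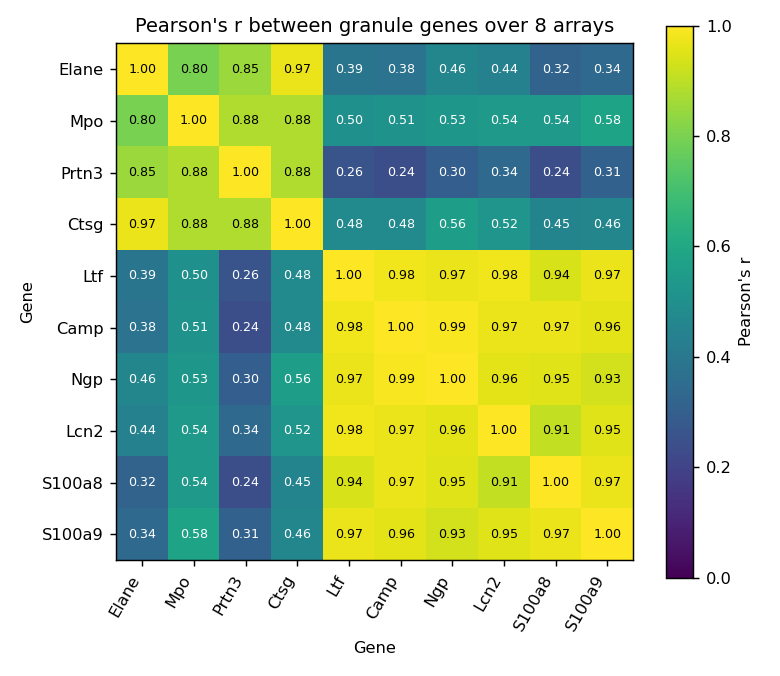
Pearson's r over 8 arrays (colour and printed value) between each pair of the 10 granule genes, with the early genes first on both axes. Pairs of late genes lie between 0.91 and 0.99, pairs of early genes between 0.80 and 0.97 and mixed pairs between 0.24 and 0.58.

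Leaving out Sca1-MALT1 replicate 4, the highest array of its group for each late gene, necessarily widened the difference of every late gene. S100a9 then stood at -1.75 (SE 0.42, limma adjusted p = 0.192), Ltf at -1.69 (SE 0.51, adjusted p = 0.258) and S100a8 at -1.06 (SE 0.35, adjusted p = 0.284). Lcn2 stood at -1.31 and Camp at -1.30, and these 5 genes had an unadjusted p under 0.05 in that fit, where 12.9% of all genes did. After adjustment 0 of 10 passed, where 0.132% of all genes did. Leaving out WT replicate 3 instead, the highest WT array for each late gene, necessarily narrowed the differences. S100a9 then stood at -1.04, Ltf at -0.67, S100a8 at -0.65, Camp at -0.55, Lcn2 at -0.30 and Ngp at -0.28. Without both arrays the late genes stood at -0.56 (Ngp) to -1.48 (S100a9), close to the values over all 8 arrays.

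The direction of the early genes depended on the arrays in the fit. With single arrays left out, Elane (0.31 to 2.43) and Prtn3 (0.13 to 1.29) stayed higher in Sca1-MALT1. Ctsg turned direction in 1 of these fits and Mpo in 2. Without Sca1-MALT1 replicate 4 and WT replicate 3, Elane stood at -0.17 (SE 1.23), Prtn3 at -0.39 (SE 0.60), Ctsg at -0.78 (SE 1.39) and Mpo at -2.34 (SE 1.10, limma adjusted p = 0.456). The 3 early genes that were higher in Sca1-MALT1 over 8 arrays were thus lower without these arrays. For all 4 early genes Sca1-MALT1 replicate 4 was the highest array and WT replicate 3 among the 2 lowest. Leaving both out could therefore only lower their differences, and the arrays were chosen after the values were seen.

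**Figure D4:**
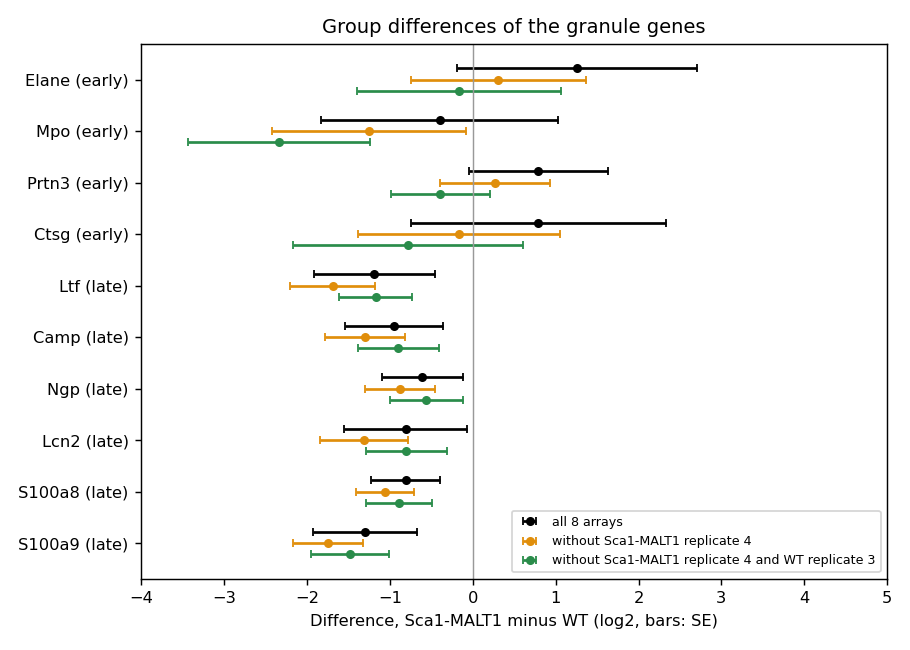
Difference in RMA signal, Sca1-MALT1 minus WT (log2, horizontal axis, bars show the SE of the limma fit), for the 10 granule genes (rows) over all 8 arrays (black), without Sca1-MALT1 replicate 4 (orange), and without that array and WT replicate 3 (green). The 6 late genes lie below 0 in the 3 fits, and Elane, Prtn3 and Ctsg lie above 0 in black and below it in green.

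Other genes of azurophil granules and promyelocytes did not move as a group. Of 12 listed genes 9 were measured, 5 higher and 4 lower in Sca1-MALT1 with a median difference of 0.10. By limma's test 0 passed and 2 had an unadjusted p under 0.05. Ms4a3, a membrane protein of committed granulocyte and monocyte progenitors, was the gene of this list among the 10 most like the 4 early genes, with r of 0.94 to their mean pattern and 0.60 to that of the late genes. Its signal was 10.49, 7.94, 6.75, 12.54 and 7.24 in the Sca1-MALT1 arrays, against 7.07, 9.75 and 7.95 in the WT arrays. Those values show again Sca1-MALT1 replicates 4 and 1 and WT replicate 2 on top.

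The 2 azurophil-list genes with unadjusted p under 0.05 are also expressed by cytotoxic lymphocytes. Cst7, the protease inhibitor cystatin F, read 10.17, 9.74, 9.83, 10.51 and 10.74 in the Sca1-MALT1 arrays, against 9.33, 9.08 and 8.06 in the WT arrays, a difference of 1.38 (SE 0.33, limma adjusted p = 0.261). Nkg7, a protein of cytotoxic granules, differed by 1.17 (SE 0.32, limma adjusted p = 0.298), with all Sca1-MALT1 arrays above all WT arrays in both genes. The mean signal of 5 measured T cell markers of 7 listed was 10.84, 11.17, 11.18, 9.39 and 11.21 in Sca1-MALT1 replicates 1 to 5, against 9.58, 9.92 and 9.76 in WT replicates 1 to 3. Sca1-MALT1 replicates 1, 2, 3 and 5 thus lay above all WT arrays and replicate 4 below them, and all 5 markers were higher on average. The part of T cells in the Cst7 and Nkg7 values was not tested. Without the 2 arrays highest in Itgam, Cst7 stood at 0.91 and Nkg7 at 1.06. Lyz2, the lysozyme of myeloid cells, stood at -1.33 (SE 0.58, limma adjusted p = 0.493), and Plac8, first known from placenta and expressed in myeloid progenitors, at -0.68 (SE 0.47, limma adjusted p = 0.679), and at -1.22 without the 2 arrays highest in Itgam. Ctsc, the dipeptidyl peptidase that activates the early serine proteases, differed by 0.17 (SE 0.33), and Srgn, the proteoglycan core on which they are packed, by 0.10 (SE 0.10).

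Genes of specific and gelatinase granules and of late neutrophils followed the 6 late genes. Of 23 listed genes 21 were measured, and all 21 were lower on average in Sca1-MALT1, with a median difference of -0.78, but 0 passed limma's test and 0 had an unadjusted p under 0.05. In all 21, Sca1-MALT1 replicate 4 and WT replicate 3 were the 2 highest arrays, an arrangement seen in 5.5% of all genes. Itgam, by which these 2 arrays were set apart, is 1 of the 21, so its place there was fixed by that choice. It had r of 0.86 to the mean pattern of the late genes, so the 2 rankings are not separate observations. Pglyrp1, a peptidoglycan recognition protein, stood at -1.90 (SE 1.05, limma adjusted p = 0.584), and Wfdc21, a whey acidic protein family member, at -1.34 (SE 0.85, limma adjusted p = 0.645). Mmp8, the neutrophil collagenase, read 10.53, 9.31, 8.62, 12.33 and 9.12 in the Sca1-MALT1 arrays, against 10.25, 10.52 and 12.71 in the WT arrays. Its difference was -1.18 (SE 0.90, limma adjusted p = 0.712), and it was -0.40 without WT replicate 3. Without that array Pglyrp1 stood at -1.18 and Wfdc21 at -0.83.

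Among surface and chemotaxis genes of mature neutrophils, 6 of 9 measured genes had Sca1-MALT1 replicate 4 and WT replicate 3 as their 2 highest arrays. Of all genes 5.5% did. Of 12 listed genes 9 were measured, 7 lower and 2 higher, with a median difference of -0.83, 0 past limma's threshold and 1 with an unadjusted p under 0.05. That gene was Clec4d, a C-type lectin of myeloid cells, at -1.98 (SE 0.69, limma adjusted p = 0.383, exact permutation p = 0.0536). Csf3r, the receptor for G-CSF, stood at -1.27 (SE 0.70), the chemokine receptor gene Cxcr2 at -1.48 (SE 0.95) and the Fc receptor gene Fcgr3 at -0.92 (SE 0.75), with limma adjusted p-values of 0.585 to 0.739. Without WT replicate 3, Csf3r stood at -0.81, Cxcr2 at -0.67 and Fcgr3 at -0.23.

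**Figure D5:**
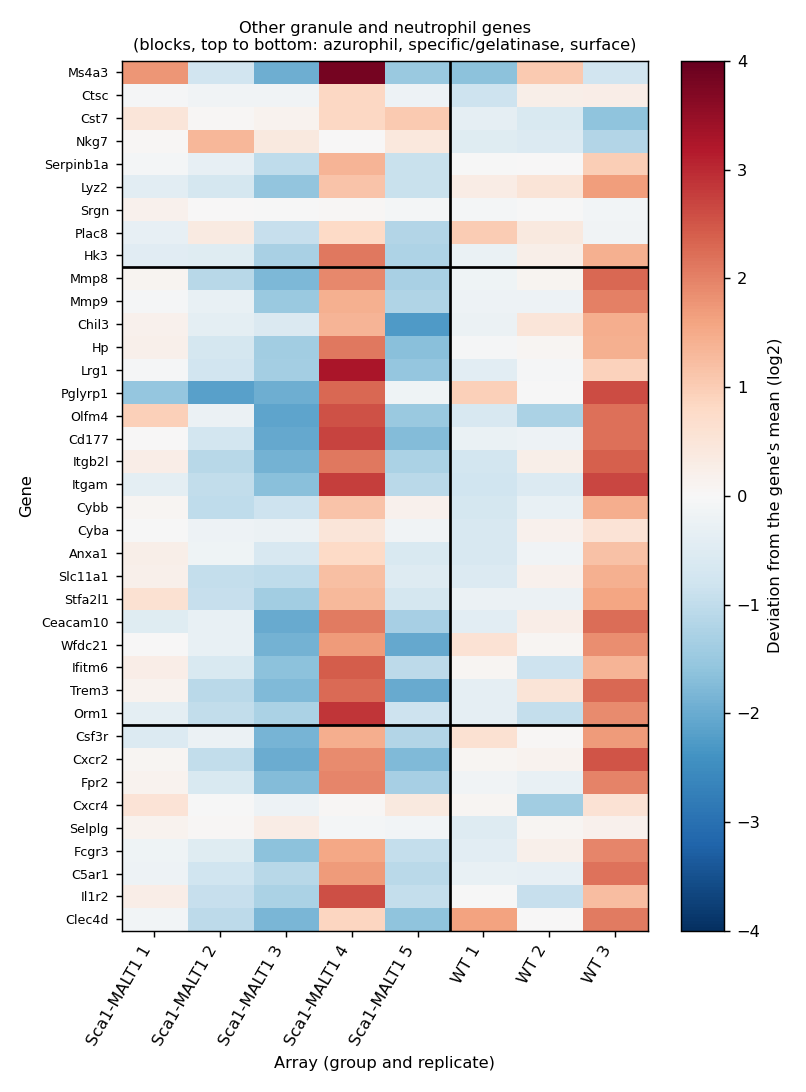
Deviation of each gene (rows) from its mean over 8 arrays (colour, log2) in the 5 Sca1-MALT1 arrays (left of the vertical line) and the 3 WT arrays, for the measured genes of the azurophil, the specific and gelatinase, and the surface lists, each gene shown once. All 21 genes of the specific and gelatinase list (Lyz2 is drawn with the azurophil genes) are highest in Sca1-MALT1 replicate 4 and WT replicate 3. Itgam, by which these 2 arrays were set apart, is 1 of them. Ms4a3 at the top is high in Sca1-MALT1 replicates 4 and 1 and WT replicate 2.

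Regulators of granule genes were measured for 16 of 17 listed genes, 11 lower and 5 higher in Sca1-MALT1 with a median difference of -0.31. By limma's test 0 passed and 2 had an unadjusted p under 0.05. Myb, which drives the early granule programme and progenitor growth, read 9.81, 12.19, 9.68, 12.13 and 12.14 in the Sca1-MALT1 arrays, against 12.96, 12.68 and 12.63 in the WT arrays. All Sca1-MALT1 arrays were lower than all WT arrays, 2 of them by far (difference -1.57, SE 0.67, limma adjusted p = 0.486). Hoxa9, a homeobox gene of progenitors, stood at -1.82 (SE 0.78, limma adjusted p = 0.481), Per1, a clock gene, at 0.70 (SE 0.37) and Cebpd, the C/EBP delta gene, at -0.95 (SE 0.86). Without WT replicate 3, Per1 stood at 0.46 and Cebpd at -0.36, and Cebpd stood at -1.59 without Sca1-MALT1 replicate 4.

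Over the 8 arrays Cebpd had r of 0.93 to the mean pattern of the late genes and 0.50 to that of the early genes. The PU.1 gene Spi1 had 0.85 and 0.57, the C/EBP alpha gene Cebpa 0.83 and 0.74, Gfi1, a repressor needed for granulocyte formation, 0.54 and 0.40, and Myb 0.45 and 0.11. The r to the early pattern rested on Sca1-MALT1 replicate 4, without which it was 0.02 for Cebpd, 0.11 for Spi1, 0.38 for Cebpa, 0.20 for Gfi1 and 0.04 for Myb. The r to the late pattern without Sca1-MALT1 replicate 5 was 0.96 for Cebpd, 0.94 for Spi1, 0.83 for Cebpa, 0.56 for Gfi1 and 0.63 for Myb. Each time the array farthest from the median of the pattern was left out. The late values thus still hold Sca1-MALT1 replicate 4 and WT replicate 3, the highest arrays of that pattern. They are therefore not a like check to the early values. These 4 genes beside Cebpd were named for their known roles and with their values seen. Other listed regulators went the other way over the 8 arrays. The r to the late and early patterns was -0.29 and -0.49 for Runx1, -0.34 and -0.73 for Cbfb and -0.24 and -0.35 for Ets1. Without Sca1-MALT1 replicate 4 the r to the early pattern was -0.24, -0.32 and -0.25. Per1, Hoxa9 and Hoxa10 were also negative to both patterns over the 8 arrays, and Cebpb, Irf8, Klf5, Klf4 and Rara positive. Cebpe, the best known regulator of the late genes, was not analysed here, since no probe set was assigned to it alone.

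Genes whose proteins bind or inhibit granule proteins included 2 genes that were higher in Sca1-MALT1 by over 2 log2 units, neither past the threshold. Of 17 listed genes 14 were measured, 7 higher and 7 lower with a median difference of 0.01, and 0 passed limma's test while 2 had an unadjusted p under 0.05. Slpi, a secreted inhibitor of elastase and cathepsin G, reached 14.67 in Sca1-MALT1 replicate 1, against 10.63, 10.48 and 12.63 in the WT arrays. Every Sca1-MALT1 array was above every WT array, a difference of 2.81 (SE 0.57, limma adjusted p = 0.194, exact permutation p = 0.0179). Cp, or ceruloplasmin, a copper protein of plasma that binds myeloperoxidase and lactoferrin, read 9.33, 6.98, 8.05, 10.31 and 10.13 in the Sca1-MALT1 arrays, against 7.15, 7.09 and 6.48 in the WT arrays (difference 2.05, SE 0.73, limma adjusted p = 0.398). Bsg, a surface glycoprotein reported to bind S100a9, stood at 0.52 and Cd33, a sialic acid-binding lectin, at -0.94. Without WT replicate 3, Cd33 stood at -0.28. Slc22a17, a receptor for lipocalin 2, and Tlr4, a receptor for calprotectin, differed by 0.19 (SE 0.13) and -0.10 (SE 0.40).

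Genes of granule biogenesis and congenital neutropenia had differences from -1.27 (Csf3r, given above) to 0.70. Of 18 listed genes 17 were measured, 10 lower and 7 higher with a median difference of -0.11, and 0 passed limma's test while 1 had an unadjusted p under 0.05. That gene, Srp54b, for a subunit of the signal recognition particle, stood at 0.70 (SE 0.20, limma adjusted p = 0.322). The glucose phosphatase gene G6pc3 stood at 0.38 (SE 0.17), and the vesicle transport genes Vps13b and Vps45 at 0.29 (SE 0.13) and -0.32 (SE 0.18). Vps13b was at 0.00 where all probe sets of a gene were averaged.

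The signal of other genes over the 8 arrays was compared with the mean pattern of the late genes, each scaled to its own SD. The 10 with the highest r were Wfdc21, Mcemp1, Ncf1, Cxcr2, Slco4c1, Ceacam1, Lgals3, Gpr137, Mgst1 and Trem3, with r of 0.97 to 0.99, and of 0.95 to 0.99 without Sca1-MALT1 replicate 5, the array farthest from the median of that scaled pattern. Of the 10, Wfdc21, Cxcr2 and Trem3 belong to the lists above. Ncf1, a cytosolic subunit of the phagocyte NADPH oxidase, read 11.19, 10.48, 9.97, 12.94 and 9.37 in the Sca1-MALT1 arrays, against 11.44, 11.69 and 13.06 in the WT arrays. Their ranges over the 8 arrays were 3.30 to 4.74 log2 units, apart from Gpr137 at 0.74.

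The 10 genes most like the early pattern were Uap1l1, Ankrd36, Aarsd1, Ighmbp2, Pdia6, Afg3l1, Ms4a3, Dhrs4, Gm15941 and Utp6, with r of 0.93 to 0.96, and of 0.86 to 0.94 without Sca1-MALT1 replicate 4. Ms4a3 alone among them ranged widely, by 5.80 log2 units, and the other 9 ranged by 0.31 to 1.29. Among 18193 genes and 8 arrays such high values arise easily.

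Markers of other cell types also differed between arrays. For monocytes, macrophages and dendritic cells 10 of 12 markers were measured, with a mean signal of 8.19 to 9.63 in the Sca1-MALT1 arrays and 8.72 to 9.86 in the WT arrays. Sca1-MALT1 replicate 4 and WT replicate 3 were the highest arrays of their groups. F13a1, a monocyte marker, read 9.92, 8.27, 7.60, 12.13 and 7.23 in the Sca1-MALT1 arrays, against 8.44, 9.93 and 11.52 in the WT arrays. The stem and progenitor markers, 10 of 11 measured, had a mean signal of 8.09, 10.22, 8.71, 8.47 and 10.39 in Sca1-MALT1 replicates 1 to 5, against 10.82, 10.23 and 9.36 in WT replicates 1 to 3. WT replicate 3 was the lowest WT array for them. For mast cells, basophils and eosinophils 9 of 10 markers were measured, with a mean signal of 7.61, 6.78, 6.35, 8.61 and 7.08 in Sca1-MALT1 replicates 1 to 5, against 6.60, 8.05 and 7.16 in WT replicates 1 to 3. Their 3 highest arrays were those of the early granule genes. The B cell markers, 8 of 9 measured, were all lower in Sca1-MALT1, 3 of them past the threshold of limma's test, with a mean signal of at most 8.37 in the Sca1-MALT1 arrays, all below the WT arrays, and at most 10.82 in the WT arrays. The 7 plasma cell markers were all higher, 1 past the threshold, with a mean signal of 10.72 to 12.62 in the Sca1-MALT1 arrays and 9.14 to 9.64 in the WT arrays. The part of these cells in the granule gene signals was not tested. As a measure of RNA quality, the 3′ minus 5′ signal of the Gapdh control probe sets was 2.70, 2.55, 2.75, 2.25 and 3.20 in Sca1-MALT1 replicates 1 to 5, against 2.70, 2.80 and 2.92 in WT replicates 1 to 3. For beta-actin it was 1.33, 1.53, 1.29, 1.25 and 2.49 in the Sca1-MALT1 arrays, against 2.14, 1.64 and 1.45 in the WT arrays. Sca1-MALT1 replicate 5 was the highest array and replicate 4 the lowest for both, and WT replicate 3 was the highest WT array for Gapdh and the lowest for beta-actin.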

How the data were processed

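Log2 signals per probe set were deposited after RMA (background correction, quantile normalization and summary of the probes), per the submitters' processing notes. Not given in the sources used here: its version and which arrays entered one normalization. A log2 scale was inferred from the range of the deposited values, 2.73 to 15.41. The values were used as deposited. The 64 control probe sets were left out, gene symbols were brought up to date by Entrez identifier (RefSeq, GRCm38.p6), and each gene was represented by its brightest probe set on average. RMA gives no detection call.

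Sca1-MALT1 was compared with WT in 1 fit of the 8 arrays by lmFit and eBayes of limma 3.58.1 (R 4.3.3), with p-values adjusted by Benjamini-Hochberg over 18193 genes at a threshold of 0.05, two-sided. Single genes were also tested by the exact two-sided permutation test over all 56 splits of the arrays. The number of arrays limits the precision. The fit was tested on simulated data with known changes.

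The 10 genes and the lists were chosen with earlier results of these data known. In each list up to 4 genes with the lowest unadjusted p were named; others were named with their values seen. The alternatives were quantile normalization, median centring, a filter on dim genes, mean of probe sets, all probe sets, array weights, a robust variance with an intensity trend, the replicate number as a block, and each array left out in turn. The fit without the 2 arrays highest in Itgam was added after the data were seen.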

Additional observations from a re-analysis of the deposited data

Results flagged for a closer look

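Of 38 values checked over the 5 Sca1-MALT1 arrays, 1 held an array far from the others, where chance gives about 1 in 20 such values. The signal of Itgam was 8.71 in Sca1-MALT1 replicate 4, against 5.55 in the next highest Sca1-MALT1 array. That gap was 0.712 of the group's whole range, above Dixon's critical value of 0.710 for 5 arrays. WT replicate 3 had 8.60 for the same gene, and its group of 3 was not checked.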

How the results depend on the processing

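In the 17 alternative limma fits, 0 of the 10 granule genes passed the threshold, with adjusted p no lower than 0.192 (S100a9 without Sca1-MALT1 replicate 4). The 6 late genes stayed lower in Sca1-MALT1 in all of them. Among the early genes, Elane turned to -0.17 and Prtn3 to -0.39 without the 2 arrays highest in Itgam, and Ctsg to -0.78 there and to -0.46 with array weights. With single arrays left out, Ctsg ranged over -0.17 to 1.97, turning without Sca1-MALT1 replicate 4, and Mpo over -1.49 to 0.35, turning without WT replicate 2 and without Sca1-MALT1 replicate 3. The number of all genes past the threshold, 16, was 27 of 45037 with all probe sets, 28 with array weights, 9 without the 2 arrays highest in Itgam, and 8 to 38 with single arrays left out, where Sca1-MALT1 replicates 3, 5 and 1 gave 8, 9 and 10 and replicate 2 gave 38. With the replicate number as a block limma called 0 genes (2034 at an unadjusted p under 0.05) and 0 of the 10 granule genes, of which 1 had an unadjusted p under 0.05. Sca1-MALT1 replicates 4 and 5 had no WT array of their number. That fit therefore took the group difference from replicates 1 to 3 alone. Arrays of the same number did not deviate together (r of -0.22, -0.04 and 0.01 between the pairs, 0 of 6 arrays closest to its own number). With so few pairs and no batch in the labels, whether such arrays shared a sort or batch is not known. The cause of these shifts was not tested. The 23 other list genes named by rule stayed on their side of the threshold in all 390 values computed and none turned direction, but Vps13b was at 0.00 with the mean of probe sets, and several moved by over 1.5 times without WT replicate 3, such as Fcgr3 to -0.23 and Mmp8 to -0.40. RMA gives no measure of signal over background, so low signals such as those of Itgam in 6 arrays may be background.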
